A study of Mus musculus with 8 samples.

Results

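CC chemokines are small secreted proteins that attract leukocytes, and several of their genes lie side by side in 2 clusters on mouse chromosome 11. This account describes acetylated histone H3 (H3ac), a modification found at active promoters and enhancers, at both clusters in the mouse macrophage-like line RAW 264.7. The clusters were taken as 2 windows on build GRCm39: chr11:81920000-82015000, for Ccl2, Ccl7 and their neighbours, and chr11:83410000-83570000, for Ccl5, Ccl9, Ccl6, Ccl3 and Ccl4. The peak lists name no genes, so every peak that overlapped a window was counted and none was assigned to a single gene. Merged over the 4 libraries, the windows held 19 H3ac regions of 81544 in all, and these came from 56 peaks. Of these, 15 and 17 belonged to the Gel libraries (replicates 1 and 2 in turn, an order kept below) and 14 and 10 to the CuNZ@Gel libraries.

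Per the labels, the cells were exposed for 48 h, fixed in 1% formaldehyde for 10 min and immunoprecipitated with an antibody to acetylated H3. One group carries the treatment label Gel and the other CuNZ@Gel, a nanozyme-bearing hydrogel, with 2 libraries each. The protocol shared by all samples mentions only CuNZ@Gel extracts, so what the Gel cells received is known from their label alone. The labels do not say whether both libraries of a treatment stem from different cultures, and the spread within a treatment may be of technical origin. No annotation of this build was used, and the macrophage label was not checked against marker genes.

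CC chemokines signal through G protein-coupled CC receptors on monocytes, T cells and other leukocytes. Ccl2 and Ccl7 draw CCR2-bearing monocytes from blood into inflamed tissue. Ccl3 and Ccl5 bind CCR1. Ccl6 and Ccl9 are rodent chemokines made by macrophages and other myeloid cells, and Ccl9 acts through CCR1. Macrophages induce Ccl2, Ccl3, Ccl4 and Ccl5 through NF-kappaB and related factors when they sense microbial products.

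In the order of the genes on the chromosome (RefSeq, GRCm38.p6), Ccl2 and Ccl7 come first, followed by Ccl11, Ccl12, Ccl8 and Ccl1, and then by the second cluster in the order Ccl5, Ccl9, Ccl6, Ccl3, Ccl4. The RefSeq table of that build gave promoter sequences for 3 of the 7 members, all from the second cluster. They are shown as the starts of genes in the cluster that carried H3ac. Their place relative to the peaks was not determined, because the peaks are on another build. Each runs from 250 bases before the gene's start to 50 after it, 5′ to 3′ on the gene's own strand, which is the minus strand of chromosome 11 in all 3. Capitals mark matches on either strand to TATAAA (the TATA box) and to GGAAGT (a core bound by ETS factors such as PU.1).
Ccl9: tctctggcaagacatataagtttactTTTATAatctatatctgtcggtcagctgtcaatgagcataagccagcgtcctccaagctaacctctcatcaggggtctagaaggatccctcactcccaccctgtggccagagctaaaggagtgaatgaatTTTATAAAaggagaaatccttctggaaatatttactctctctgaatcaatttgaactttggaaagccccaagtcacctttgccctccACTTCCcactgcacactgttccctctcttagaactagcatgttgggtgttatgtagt
Ccl6: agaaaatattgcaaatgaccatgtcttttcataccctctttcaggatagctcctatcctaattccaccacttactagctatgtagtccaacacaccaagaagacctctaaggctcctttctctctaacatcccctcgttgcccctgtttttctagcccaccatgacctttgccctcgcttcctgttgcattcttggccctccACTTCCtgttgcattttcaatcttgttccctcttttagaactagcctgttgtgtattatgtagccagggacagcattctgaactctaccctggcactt
Ccl3: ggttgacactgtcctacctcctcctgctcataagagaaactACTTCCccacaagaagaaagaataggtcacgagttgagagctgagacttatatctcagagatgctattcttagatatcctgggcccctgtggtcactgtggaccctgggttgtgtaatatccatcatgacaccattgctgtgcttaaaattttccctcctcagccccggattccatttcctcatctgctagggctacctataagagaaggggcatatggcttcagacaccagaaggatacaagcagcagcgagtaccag

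The 3 promoters each held 1 match to GGAAGT, on the strand opposite to the gene, 7 bases before the start in Ccl9, 48 before it in Ccl6 and 209 before it in Ccl3. This motif occurs in 23.8% of 32851 RefSeq promoter windows of the same length. TATAAA, present in 13.6%, was found in Ccl9 on both strands, with the matches from 94 and 92 bases before the start overlapping each other, and a further match from 224 bases before it. These are letter matches and no measure of binding.

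The 4 lists differed in depth. Read totals are unknown, so depth is given as the background level found most often in a list, in fragments covering a base. This level was 4.62 and 4.28 for Gel but 3.45 and 2.46 for CuNZ@Gel. CuNZ@Gel had fewer peaks over the whole genome, with 40075 and 34693 against 58612 and 60483, and 56.6% of the Gel covered length. Summit height below is the number of fragments at a peak's summit divided by the library background.

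The 2 clusters differed in the presence of H3ac peaks. In the window of Ccl2 and Ccl7 no library of either treatment had a peak, so 0 of 95001 bp were covered in each. In the window of Ccl5, Ccl9, Ccl6, Ccl3 and Ccl4, peaks covered 8.10% and 7.71% of the sequence in the Gel libraries but 6.53% and 4.92% in the CuNZ@Gel libraries. Every library thus had H3ac peaks at the second cluster and none at the first. In bulk chromatin, fewer cells with a mark and less of the mark per cell cannot be told apart.

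**Figure D1:**
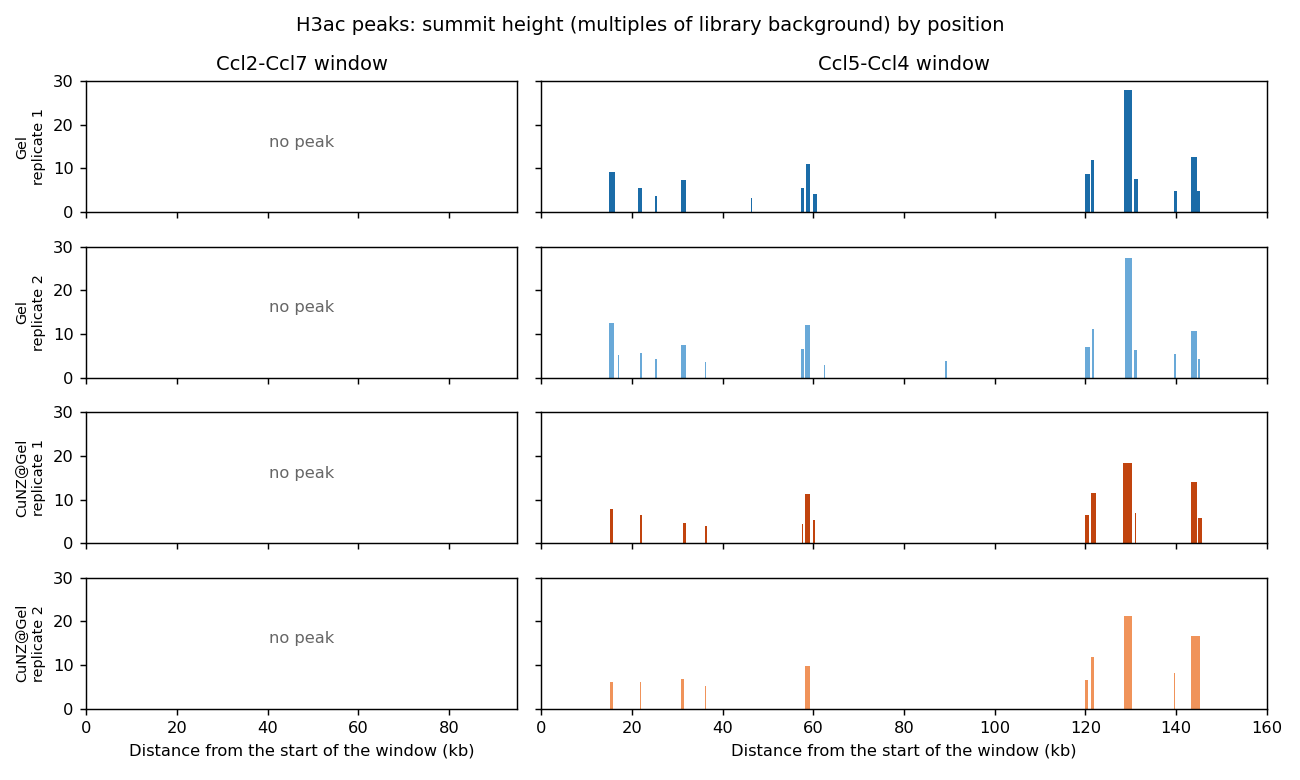
Summit height (y axis, multiples of the library background) and extent of each H3ac peak by distance from the start of its window (x axis, kb), with 1 row per library and 1 column per window. The 4 rows of the Ccl2-Ccl7 window are empty, and the Ccl5-Ccl4 window shows 15, 17, 14 and 10 peaks in the Gel and CuNZ@Gel libraries.

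A stretch without peaks was common. Cut into tiles of the length of the Ccl2-Ccl7 window, the genome had 26992 tiles, of which 52.1% had no peak in any of the 4 libraries. The weakest peaks called anywhere in the lists had 13 and 12 summit fragments in the Gel lists but 11 and 9 in the CuNZ@Gel lists. H3ac that did not reach the caller's threshold is not seen in such lists, so acetylation at Ccl2 and Ccl7 was not detected at this depth, which does not show that it was absent. The 0 peaks are those of the lists as used here, and whether the lists are complete over this window was not checked, which limits the contrast between the clusters in the same way.

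The peak-free stretch reached beyond the Ccl2-Ccl7 window on both sides. Between the nearest peaks it measured 227 kb in both Gel libraries and 230 kb in CuNZ@Gel replicate 1. In CuNZ@Gel replicate 2 it measured 1.94 Mb, from 80701870 to 82637723 on chromosome 11. This stretch was defined by the lack of peaks in CuNZ@Gel replicate 2, and its counts were not compared with other stretches. Over the same 1.94 Mb, Gel replicates 1 and 2 had 9 and 10 peaks and CuNZ@Gel replicate 1 had 2. They had 14 to 19 summit fragments in Gel replicate 1, where the median of the list was 22, 12 to 27 in Gel replicate 2, where it was 20, and 13 and 19 in CuNZ@Gel replicate 1, where it was 19. The nearest peak before the window ended 22.0 kb from its edge in Gel replicates 1 and 2 and in CuNZ@Gel replicate 1. On the other side, the nearest peaks of these libraries began 110 to 113 kb beyond it.

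The Ccl5-Ccl4 window was more covered than most of the genome. Among 16019 tiles of its length, 94.3% to 97.3% were less covered, depending on the library. Many of these tiles were empty, as 48.2% to 55.0% had no peak in a given library. The window had 12960 and 12335 bp under peaks in the Gel libraries and 10452 and 7875 bp in the CuNZ@Gel libraries. The means were 12648 ± 442 bp for Gel and 9164 ± 1822 bp for CuNZ@Gel (SD, n = 2 each), a difference of -3484 bp (CuNZ@Gel minus Gel). The groups did not overlap, and the exact two-sided permutation p was 0.333, the smallest that 2 against 2 libraries can give. Of the tiles of this length with a peak in some library, 78.9% were likewise less covered in both CuNZ@Gel than in both Gel libraries.

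Peak numbers had the same order, with 16 ± 1.41 in Gel and 12 ± 2.83 in CuNZ@Gel (SD, n = 2 each, exact two-sided permutation p = 0.333). The difference was 0 when every list was cut to the length of the shortest. CuNZ@Gel had 75.0% of the Gel peaks in this window, against 62.8% over the genome and 60.4% on chromosome 11. The share of tiles with the same order of peak numbers was not determined. The difference between the clusters, as the percentage of the Ccl5-Ccl4 window covered minus that of the Ccl2-Ccl7 window, was 7.90 ± 0.276 percentage points in Gel and 5.73 ± 1.14 in CuNZ@Gel (SD, n = 2 each, exact two-sided permutation p = 0.333). As the first window was empty in all libraries, this difference rests on the second window alone.

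CuNZ@Gel kept 72.5% of the Gel covered length in the Ccl5-Ccl4 window, against 56.0% on chromosome 11 as a whole. For single pairs of a CuNZ@Gel and a Gel library this ranged from 60.8% to 84.7% in the window and from 51.5% to 61.9% over the genome, so the ranges overlapped. As a share of all bases under peaks in its list, the window took 0.0306% and 0.0286% for Gel but 0.0399% and 0.0354% for CuNZ@Gel. Both CuNZ@Gel shares were above both Gel shares, an order that 25.6% of the tiles with a peak in some library also had.

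Of the 19 regions in the Ccl5-Ccl4 window, 8 had a peak in all 4 libraries, which was so for 26.9% of all regions of the genome. The region chr11:83435043-83435566 was the only one with peaks in both Gel and no CuNZ@Gel library, a pattern of 12% of all regions. Its Gel peaks were 430 and 524 bp wide with 17 and 18 summit fragments. Of the 12 regions of the window with peaks in both Gel libraries this is 1, where the share over the genome was 24.9%. No region had peaks in both CuNZ@Gel and no Gel library, against 0.318% of all regions. The other regions had peaks in 3 libraries (4 regions), in Gel replicate 1 and CuNZ@Gel replicate 1 (1 region) or in a single library (5 regions, 4 of them in Gel). The peaks seen in a single library were 166 to 352 bp wide, with 12 to 22 summit fragments and an authors' fold enrichment of 2.46 to 3.90.

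The tallest H3ac peak of the cluster lay at chr11:83538221-83540248. Its summit held 129 and 117 fragments with Gel but 63 and 52 with CuNZ@Gel. In multiples of the library background, the heights were 27.9 and 27.3 in Gel against 18.3 and 21.1 in CuNZ@Gel, so the groups did not overlap. On the log2 scale the means were 4.79 ± 0.022 for Gel and 4.30 ± 0.15 for CuNZ@Gel (SD, n = 2 each), a difference of -0.49 (exact two-sided permutation p = 0.333). The covered width did not separate the groups, at 1789 and 1603 bp with Gel against 1953 and 1724 bp with CuNZ@Gel. The region thus had a lower summit in CuNZ@Gel at an overlapping width. Of all regions with peaks in all 4 libraries, 56.7% had a lower summit height in both CuNZ@Gel libraries. By mean height, 91.5% of those regions were lower than this one in Gel and 90.4% in CuNZ@Gel.

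The authors' fold at this region, which is relative to the local background, gave another order, with 21.6 and 10.8 for Gel but 14.1 and 13.7 for CuNZ@Gel. The local background was 1.09 and 2.31 times the library background with Gel, and 1.02 and 1.16 times with CuNZ@Gel. With this fold, the log2 difference of the tallest peak was -0.13 (exact two-sided permutation p = 1.0), and with unscaled fragments it was -1.10 (p = 0.333 by the same exact test). The size of the difference at this peak therefore depended on the scale.

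The next tallest region, chr11:83553247-83555609, had the opposite order. Its heights were 12.6 and 10.7 with Gel but 13.9 and 16.7 with CuNZ@Gel, with no overlap between groups. In unscaled fragments the summits held 58 and 46 in Gel and 48 and 41 in CuNZ@Gel, which overlapped. The authors' folds were 10.01 and 6.87 against 11.02 and 12.1. The width was 1880 and 1789 bp with Gel against 2075 and 1836 bp with CuNZ@Gel, and the deeper 3 libraries called it as 2 adjacent peaks where CuNZ@Gel replicate 2 had 1.

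In the region chr11:83531312-83532258 the heights lay close together, with 11.9 and 11.2 in Gel and 11.6 and 11.8 in CuNZ@Gel. It was wider in both CuNZ@Gel libraries, at 507 and 567 bp with Gel against 925 and 659 bp with CuNZ@Gel. It was the single region of the 8 that was wider in both, an order that 1.26% of all regions with peaks in all 4 libraries had. At chr11:83468242-83469347 neither measure separated the groups, with heights of 11.04 and 12.1 in Gel and 11.3 and 9.76 in CuNZ@Gel, and widths of 922 and 1069 bp against 1037 and 1046 bp.

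The first region of the window, chr11:83424928-83426209, was lower and narrower in CuNZ@Gel. Its heights were 9.09 and 12.6 in Gel against 7.83 and 6.10 in CuNZ@Gel, and its widths were 1282 and 1024 bp against 700 and 566 bp. Neither measure overlapped between the groups, but the authors' fold did, with 5.55 and 10.4 in Gel against 6.30 and 4.63 in CuNZ@Gel. The region chr11:83440930-83442020 also had lower summits in CuNZ@Gel, with 7.36 and 7.48 in Gel and 4.64 and 6.91 in CuNZ@Gel. Its authors' folds were 6.23 and 6.24 against 3.82 and 5.21, and its widths 1006 and 1082 bp against 814 and 539 bp. The region chr11:83529849-83531066 had heights of 8.66 and 7.01 against 6.38 and 6.504. Its folds were 7.30 and 5.87 against 5.17 and 4.07, and its widths 1102 and 1218 bp against 834 and 795 bp. In both regions the height, fold and width did not overlap between the groups. The last of the 8, chr11:83431288-83432291, was narrower in CuNZ@Gel, with widths of 929 and 587 bp in Gel against 413 and 317 bp. Its height was slightly higher in CuNZ@Gel, with 5.41 and 5.61 in Gel and 6.38 and 6.10 in CuNZ@Gel. In unscaled fragments its summit was lower in CuNZ@Gel, with 25 and 24 in Gel against 22 and 15. The authors' folds overlapped, with 3.57 and 4.73 in Gel against 5.17 and 4.63 in CuNZ@Gel.

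**Figure D2:**
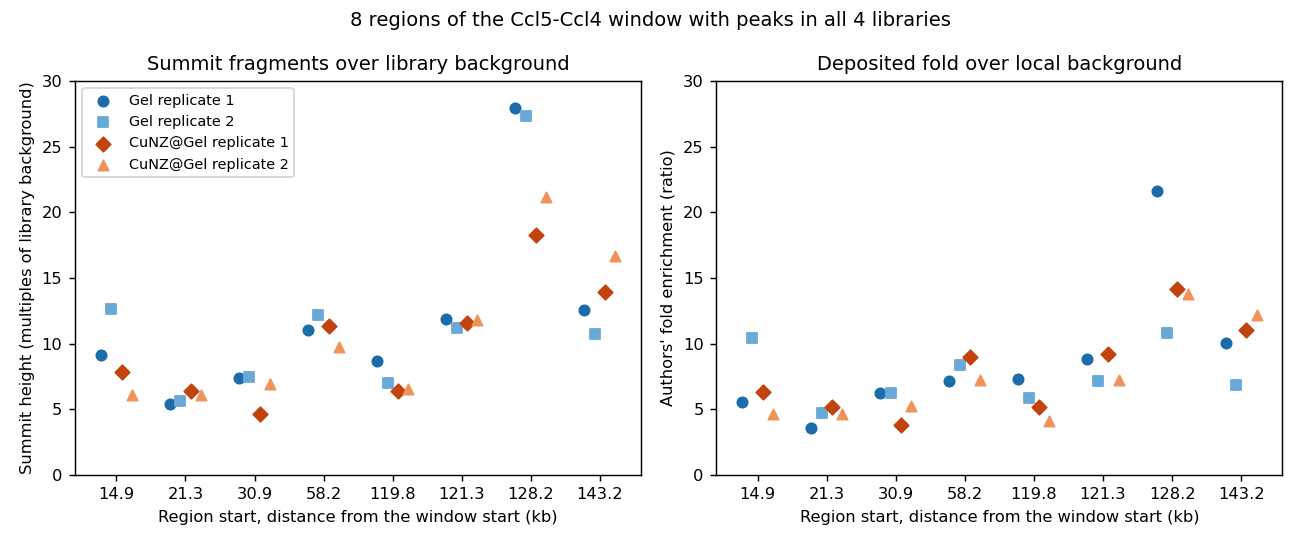
Summit height in multiples of the library background (left, y axis) and the authors' fold enrichment over local background (right, y axis) in the 8 regions with peaks in all 4 libraries, placed by distance from the window start (x axis, kb), with 1 point per library. At 128.2 kb both Gel heights, 27.9 and 27.3, are above both CuNZ@Gel heights, while the folds of the Gel libraries lie on either side of them; at 143.2 kb the CuNZ@Gel heights are the higher ones.

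Over these 8 regions, the summit was lower in both CuNZ@Gel libraries in 4 and higher in both in 2, where 56.7% and 7.18% of the 21909 regions of the genome with peaks in all 4 libraries had these orders. The width was lower in both CuNZ@Gel libraries in 4 and higher in both in 1, against 74.5% and 1.26% of those regions. The median log2 ratio of mean heights, CuNZ@Gel over Gel, was -0.21 over the 8 regions and -0.27 over all 21909. The median width in CuNZ@Gel was 85.7% of Gel over the 8 and 72.8% over all. Unscaled fragments were lower in both CuNZ@Gel libraries in 7 of the 8, against 92% of all such regions. Unscaled counts and widths can depend on depth, which was lower in CuNZ@Gel, and the part of depth in them was not tested region by region.

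**Figure D3:**
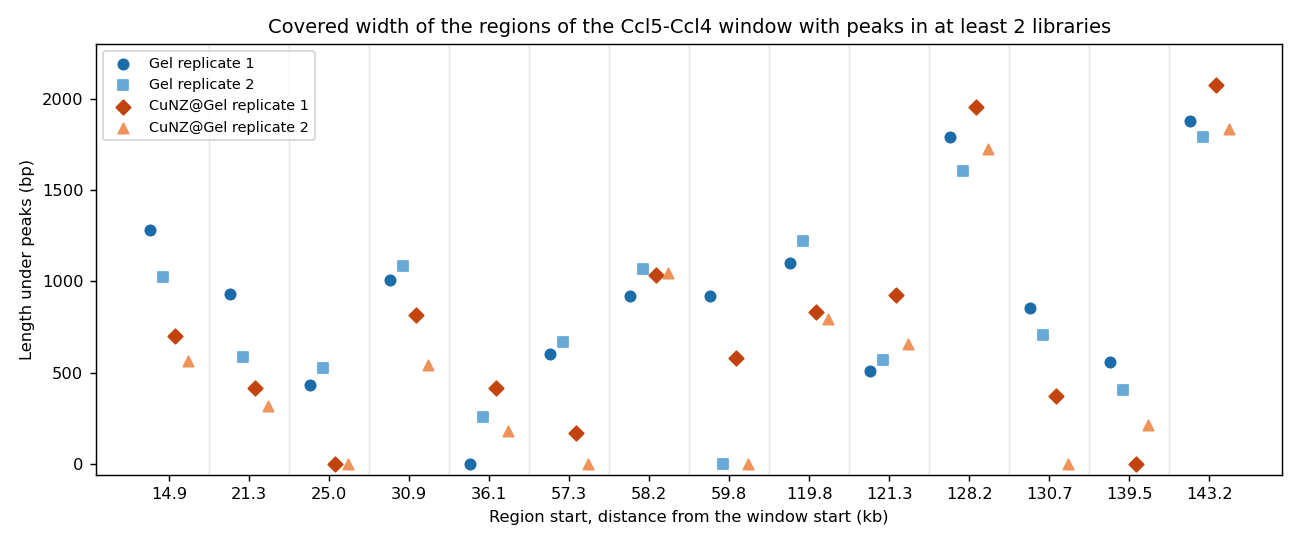
Length under peaks (y axis, bp) in the 14 regions of the Ccl5-Ccl4 window with peaks in at least 2 libraries, by distance from the window start (x axis, kb), with 1 point per library and 0 where a library had no peak. Regions at 128.2 and 143.2 kb keep overlapping widths, while those at 14.9, 21.3 and 30.9 kb are narrower in both CuNZ@Gel libraries.

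In some regions the summit positions of the groups did not overlap, which was also common over the genome. At the tallest region the summits lay at 83540023 and 83539988 in Gel and at 83539567 and 83539738 in CuNZ@Gel, a span of 456 bp. In the first region they lay at 83425703 and 83425758 against 83425545 and 83425536. In 4 of the 8 regions the summit positions of the groups did not overlap, against 37.1% of the 21909 regions. With so few regions, the window is not shown to depart from the genome.

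H3ac in the Ccl5-Ccl4 window fell into 2 blocks separated by 59.1 kb without a region shared by libraries. The boundary was drawn after the values were seen, so the blocks are described without a test. The first block, chr11:83424928-83470763, spans 45.8 kb, with 6270 and 5501 bp under peaks for Gel against 4127 and 2647 bp for CuNZ@Gel. The second, chr11:83529849-83555609, spans 25.8 kb and holds the tallest regions. Its values were 6690 and 6288 bp for Gel against 6325 and 5228 bp for CuNZ@Gel, where the groups overlapped.

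**Figure D4:**
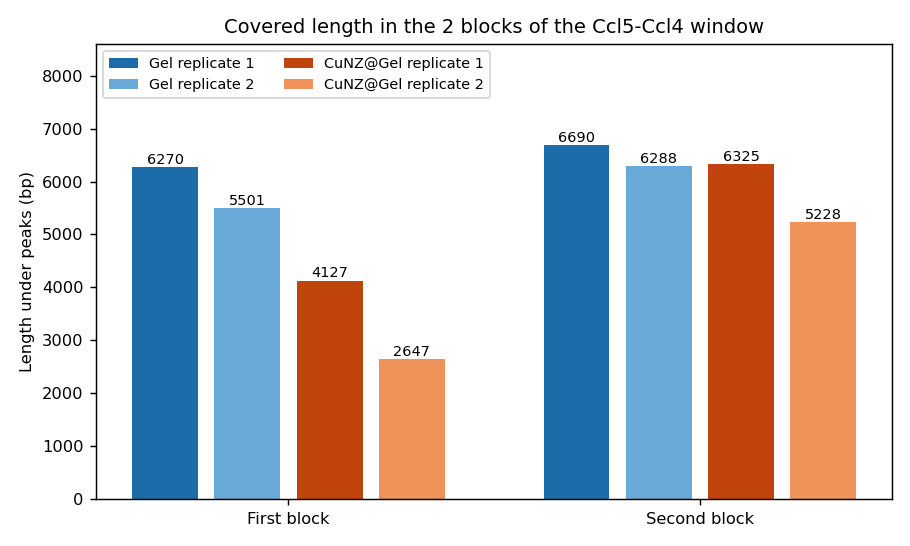
Length under peaks (y axis, bp, from 0) in the first and second block of H3ac in the Ccl5-Ccl4 window, with 1 bar per library and the value above it. In the first block both CuNZ@Gel bars are below both Gel bars, and in the second block CuNZ@Gel replicate 1, with 6325 bp, stands above Gel replicate 2, with 6288 bp.

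CuNZ@Gel had 57.5% of the Gel mean in the first block and 89.0% in the second, against 56.6% over the genome. The first block thus lay near the genome value. The second block took between 51.6% and 53.3% of the blocks' covered length in Gel, but 60.5% and 66.4% with CuNZ@Gel. How often parts of other covered windows differ this much was not determined, so the blocks are not shown to be unusual. Of the 8 regions with peaks in all 4 libraries each block held 4. In the first block 3 of these were narrower in both CuNZ@Gel libraries, and in the second 1, against 74.5% of such regions in the genome. Counts of regions by summit height and the median ratio of heights did not set the blocks apart in this way, but median heights did. Over the 4 regions of the first block, the median of the mean heights was 9.14 in Gel and 6.60 in CuNZ@Gel. In the second block it was 11.6 and 13.5. In each block the summit was lower in both CuNZ@Gel libraries in 2 of the 4 regions and higher in both in 1, and the median ratio of mean heights, CuNZ@Gel over Gel, was 0.843 in the first block and 0.917 in the second.

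Peaks in both Gel libraries and only 1 CuNZ@Gel library were found in 3 regions of the window, or 15.8%, against 9.35% of all regions. Some smaller regions beside strong ones had no peak in CuNZ@Gel replicate 2, the shallowest library, and the part of depth in this was not tested. At chr11:83467273-83467980, next to the region from 83468242, the widths were 600 and 665 bp with Gel against 171 bp in CuNZ@Gel replicate 1, with no peak in CuNZ@Gel replicate 2. At chr11:83540674-83541526, next to the tallest region, they were 853 and 704 bp with Gel against 372 bp in CuNZ@Gel replicate 1, again with none in replicate 2. A peak at chr11:83549526-83550140 was seen in both Gel libraries and in CuNZ@Gel replicate 2, with heights of 4.76 and 5.37 against 8.13, but not in CuNZ@Gel replicate 1. In unscaled fragments these summits held 22 and 23 against 20. At chr11:83446076-83446488 the peak was present in both CuNZ@Gel libraries and in Gel replicate 2 only, with heights of 4.06, 5.28 and 3.505. These summits held 14, 13 and 15 unscaled fragments. The presence of a peak in these regions thus varied within groups as well as between them.

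No 4 kb stretch of the clusters passed the threshold when covered width was tested. The fit (limma, trend and robust) ran over 68188 bins of 4 kb and its p-values were adjusted over all of them by the Benjamini-Hochberg method at 0.05. Of the 16 bins tested in the windows, all from the Ccl5-Ccl4 window, 0 were called lower and 0 higher in CuNZ@Gel, where 0% of all bins were called in either direction. At an unadjusted limma p under 0.05 there were 4, all lower in CuNZ@Gel, against 23.8% of all bins. The median difference was -198 bp over the 16 bins and -193 bp over all bins. The smallest adjusted p from limma was 0.0843, for the bin from 83424001 to 83428000, which had 1282 and 1317 bp with Gel against 700 and 566 bp with CuNZ@Gel. The bin from 83536001, which holds most of the tallest region, and the bin from 83552001, which holds the last one, were among the 4 with a higher mean in CuNZ@Gel. Their differences were 190 and 121 bp, with adjusted limma p of 0.42 and 0.529. A difference that misses the threshold is not shown to be absent.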

How the data were processed

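H3ac chromatin immunoprecipitation libraries of 2 Gel and 2 CuNZ@Gel samples were used; 4 input libraries were not analysed here. The submitters' processing notes name MACS2 2.2.8, SAMtools 1.17, deepTools 3.5.6, fastp and the build GRCm39. The aligner and the options of the peak caller are not given in the sources used. From these steps the authors deposited 1 list per library with start, end and summit of each peak. The deposited values are a score (the −log10 q scaled to a whole number), the fold enrichment ratio against local background, and the −log10 of both p and q.

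Summit fragments and local background were solved from the fold and the p of each peak, which worked for 100% of peaks in every list at a relative tolerance of 0.0001. The fold equals fragments plus 1 over background plus 1 under a Poisson model. The commonest background of a list stood for its depth, because read totals are unknown, so no counting interval is given. Peaks were merged where they overlapped by at least 1 bp. The group difference of a window was tested by exact permutation (two-sided, 6 splits), and covered bases in 4 kb bins with limma 3.58.1 (R 4.3.3), with Benjamini-Hochberg adjustment at 0.05 over all bins. Bins alike in all libraries were left out. Where a window had no covered base, percentage points replaced the log2 ratio, as planned. Values per region were named for the 5 regions of highest mean summit height and, beyond that rule, for others after their values were seen.

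The members, windows and lists were chosen with earlier results of these data known. Promoter peaks of other CC chemokines, CC receptors and cell type markers were planned but not run, since no annotation of GRCm39 was used. In the alternative with matched background, summit fragments and local background were scaled down to the lowest library background, 2.46, and peaks were kept at a recomputed −log10 p of at least 3.408 with their deposited widths, so read depth itself was not equalised. The promoter motifs and the blocks were chosen after the data were seen. Coordinates are 1-based.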

Additional observations from a re-analysis of the deposited data

How the results depend on the processing

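The Ccl2-Ccl7 window had no peak in any setting, also with its edges moved out by 10 kb, so its tallest summit could not be compared. In the Ccl5-Ccl4 window, covered length (main difference -3484 bp, CuNZ@Gel minus Gel) kept its direction in all settings run, with -2624 bp at a −log10 q of at least 5, -2088 bp with lists of equal length, -3167 bp with matched background, and -4773 to -2196 bp when 1 library was left out. The difference of peak number was 0 with equal list length and -2.5 with matched background. With matched background the exact two-sided permutation p was 0.667, against 0.333 in the main setting, so the groups no longer separated. The difference was -6 to -2 when 1 library was left out. The 1 Gel-only region became 0 with equal list length, 5 when a library had to cover at least 50% of a region, and 2 to 4 without any 1 library. The 4 regions narrower in both CuNZ@Gel libraries became 2 at the stricter threshold, 1 with 50% coverage and 4 to 7 without any 1 library. The 4 with lower summits became 2, 2 and 5 in the same settings. Shares over all regions are not given for these settings, so these region counts do not show whether the window departs from the genome. The window bins called by limma, 0 of 16, became 1, lower in CuNZ@Gel, of 7 with a mean width of at least 500 bp, where 23.3% of all bins tested were lower. They became 2 with quantile normalization, both higher in CuNZ@Gel, where 2.39% of all bins were lower and 0.34% higher. Leaving out 1 library gave 0 to 2, with a lone library taken to be as variable as the rest: 2 lower without Gel replicate 1 and 1 lower without Gel replicate 2, where 35.8% and 33.7% of all bins were lower, and 0 without either CuNZ@Gel library, where 0% were. The cause of the other shifts was not tested.

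Fitted with a replicate block, limma called 4 window bins, all lower in CuNZ@Gel, where 16.3% of all bins were called lower and 0.0469% higher. Libraries that share a number had deviations that correlated at 0.00919, and nothing else pairs them. The block left the differences of the windows as they were, with an exact sign-flip p of 0.5, the smallest that 2 pairs can give. Groups of 2 libraries limit every test here. The lower background of CuNZ@Gel, which stood for depth, may limit which weak peaks could be called, and this was not tested.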
